A study of Mus musculus with 6 samples.

Results

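Claudins are small membrane proteins that seal the tight junctions between epithelial cells, and 8 of their genes are described here through the open-chromatin regions listed around them: Cldn1, Cldn3, Cldn4, Cldn10, Cldn12, Cldn16, Cldn17 and Cldn18. They were taken, with the positions of listed regions already known, from 37 protein-coding genes whose symbols begin with Cldn, among 21887 protein-coding genes in all. A region was counted for a gene when its centre lay inside the gene's annotated span or within 100 kb of it. By that rule 11 of the 6502 listed regions (0.169%) belonged to the 8 genes. The members were chosen by the presence of listed regions near them, that is, by the region positions themselves. The presence of a region at each of them is therefore a description, and no test was made of it.

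The regions come from ATAC-seq, in which a transposase cuts accessible DNA, of freshly sorted mouse prostate cells in 6 libraries. The inflamed group had 3 libraries, with the genotype given as POET3, a transgenic strain that expresses ovalbumin in the prostate, and the prostates were taken 7 days after transfer of activated splenocytes from OT-1 mice, whose T cells recognise ovalbumin. The naive group had 3 libraries labelled as control with the genotype given as WT, although another protocol field names POET3 as the source of naive and inflamed tissue alike. Cells of both groups were sorted as CD45-CD31-Sca-1+CD49f+, a gate for basal stem cells meant to remove CD45-bearing leukocytes and CD31-bearing endothelium, and the age of the mice and any pooling are not given in the sources used here. Genotype as labelled and inflammation cannot be told apart.

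The authors deposited a single merged list of regions, which was read as regions that differ between inflamed and naive libraries because its name and the tools named with it point to a differential test. The list gives each region's chromosome, start and end and nothing else. It says neither which group was more open at a region nor by how much, so every sentence below is about where regions lie. The depth of each library is unknown, and no replicate error can be attached to any value. In a sorted but bulk population, a change in accessibility per cell and a change in the mix of cells within the gate cannot be told apart. All but 1 of the 6502 regions had either a width of 143 bases, seen in 3210 (49.4%), or a width of 451 bases, seen in 3291 (50.6%). The sources used here do not say what the widths stand for. Regions do not measure expression, so they give no check of the sorted identity. For the record, 4 of 5 basal epithelial markers (Krt5, Krt14, Trp63 and Ly6a, but not Itga6) had a region within 100 kb, as did 1 of 4 luminal, 2 of 4 leukocyte, 2 of 3 endothelial and 1 of 3 fibroblast and smooth muscle markers, where 42.7% of all protein-coding genes did. Lists this short cannot be told from that share.

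In a tight junction, claudins of neighbouring cells pair through their extracellular loops and form strands that close the space between cells. Some claudins tighten the barrier and others form pores that let chosen ions pass, so the set of claudins a cell makes decides how leaky its layer is. On the inner side the strands are tied to the actin skeleton by scaffold proteins such as those of the zonula occludens. In the prostate, tight junctions seal the luminal cell layer, and basal cells lie beneath that seal. Claudin genes often sit beside each other in the genome, and neighbouring claudin genes therefore share regions in the counts that follow.

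The region placed most tightly on a claudin gene covered the start of Cldn3. Cldn3 (NCBI gene 12739) encodes a barrier-forming claudin of glandular epithelia that is also a receptor for a Clostridium perfringens toxin, and it occupies chr5:134986214-134987476 of mm10 on the plus strand. A 143-base region at chr5:134986091-134986233 ran from 123 bases before the annotated start to 20 bases past it, and its centre was 52 bases upstream. It is the only region of the 11 for which the whole sequence could be read, because it falls entirely within the RefSeq promoter window of Cldn3 (assembly GRCm38.p6, with the same primary chromosomes as mm10). The stretch printed here starts 250 bases before the gene and stops at the end of the region, 5′ to 3′ on the plus strand (chr5:134985964-134986233), and is shown because it is the DNA that the listed region covers. Capitals mark the region.
Cldn3: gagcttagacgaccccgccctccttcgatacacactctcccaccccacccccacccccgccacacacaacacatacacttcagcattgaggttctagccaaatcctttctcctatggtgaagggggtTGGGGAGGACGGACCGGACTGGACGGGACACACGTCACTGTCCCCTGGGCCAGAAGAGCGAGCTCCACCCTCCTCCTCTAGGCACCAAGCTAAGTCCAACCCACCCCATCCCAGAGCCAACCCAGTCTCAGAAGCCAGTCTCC

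The capitals are rich in G and C, at 63.6%, and hold 5 CpG dinucleotides. The full 300-base promoter window, 250 bases before the start and 50 from it on, had 60.7% G and C and 9 CpG, against medians of 52.7% and 7 over the 32817 RefSeq mouse promoter windows of that length. Of those windows, 72.2% had a lower G and C content than that of Cldn3. Of the motifs searched on both strands, none lay wholly inside the region: the AP-1 motif TGANTCA, the TATA box TATAAA, the CCAAT box CCAAT, the GC box GGGCGG and the E-box CANNTG. Outside the region, the window held 1 GC box and 1 E-box, the E-box at 31 bases past the start. The GC box was on the minus strand, so the printed strand reads ccgccc, beginning at -236 from the start. Among all promoter windows, 7.81% held the AP-1 motif, 13.6% the TATA box, 37.4% the CCAAT box, 35.6% the GC box and 72.3% the E-box. These letters do not overlap each other in this window, and a missing match says nothing about the factor.

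Few listed regions sit inside a promoter window as that of Cldn3 does. Of the 6502 regions, 58 (0.892%) fell wholly inside a RefSeq promoter window and 590 (9.07%) overlapped one. All 58 were 143 bases wide, since a window of this length has no room for a region of 451 bases. Of the 11 regions at the 8 claudin genes, 1 fell wholly inside a window, that of Cldn3, and 1 more overlapped a window, that of Gm8773, a gene near Cldn12.

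Cldn4 (NCBI gene 12740), a further receptor for the same toxin and a barrier claudin that often occurs with Cldn3, lies 39.3 kb from Cldn3 with no protein-coding gene between them. Its span is chr5:134945123-134946934 on the minus strand, so the pair are transcribed away from each other and the stretch between them is upstream of both. All 3 regions of the locus were 143 bases wide and lay upstream of Cldn4 and of Cldn3. The region at chr5:134959256-134959398 was centred 12.4 kb from Cldn4 and 26.9 kb from Cldn3. The region at chr5:134966466-134966608 lay almost midway, 19.6 kb from Cldn4 and 19.7 kb from Cldn3, so assigning it to Cldn4 as the nearest gene rests on a difference smaller than the width of a region. The region at the Cldn3 start was 39.2 kb from Cldn4. Neither of the 2 regions between the genes lay inside an annotated gene of any kind. Cldn13, a further claudin gene of the cluster, lies 29.6 kb beyond Cldn4 with Mettl27 between them, and the same regions were 43.8, 51.0 and 70.6 kb from it. The next listed region lay 265 kb from Cldn4.

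**Figure D1:**
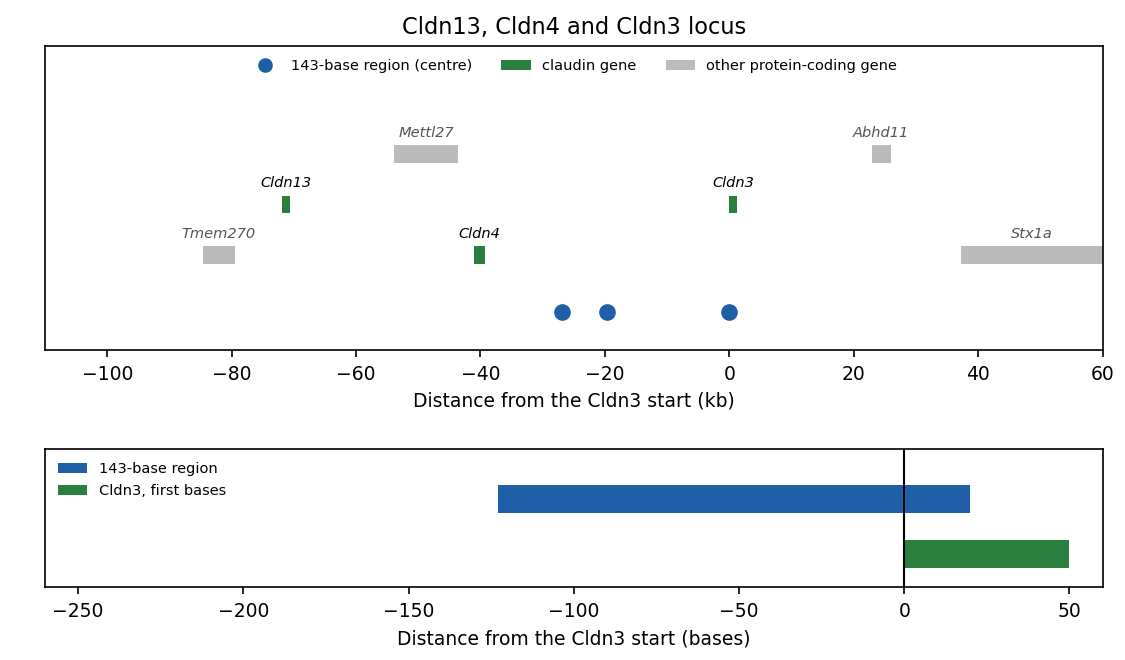
Map of the Cldn13, Cldn4 and Cldn3 locus, with protein-coding genes as bars (rows only separate names) and listed regions as points, against distance from the Cldn3 start in kb (upper panel), and the start of Cldn3 in bases (lower panel). Both regions between the genes lie in the stretch from Cldn4 to Cldn3, and the third covers the Cldn3 start from 123 bases before it to 20 bases past it.

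Cldn12 was the only one of the 8 genes with 451-base regions alone. Cldn12 (NCBI gene 64945) encodes a claudin linked to calcium passage that lacks the usual binding motif for scaffold proteins at its end. It occupies chr5:5505015-5514976 on the minus strand, far from Cldn3 and Cldn4 on the same chromosome. A region at chr5:5503324-5503774 was centred 1.47 kb beyond the downstream end of the gene, and Cldn12 was the nearest gene, with Pttg1ip2 next at 24.4 kb. The gene has 3 annotated starts within 0.187 kb of each other, and this region was 11.2 to 11.4 kb downstream of them. A second region, at chr5:5573920-5574370, was 59.2 kb upstream of Cldn12 but inside Gm8773. Cfap69 was 5.13 kb away and Gtpbp10 was also nearer than Cldn12, so the region is shared with several genes. It is the only region of the 11 (9.09%) centred inside a protein-coding gene, against 47.6% of the whole list. The 11 were picked by nearness to claudin genes, so that difference is a description only.

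Cldn18 had a single 143-base region just upstream. Cldn18 (NCBI gene 56492), known for its lung and stomach forms made from alternative first exons, occupies chr9:99690796-99717267 on the minus strand. The region at chr9:99720159-99720301 was centred 2.96 kb upstream of the outer start and 10.2 kb upstream of the inner start, which is 7.20 kb further in. It stood alone. The next listed region was 715 kb away, and the next protein-coding gene, Dzip1l, was at 50.2 kb.

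Both regions of Cldn10 were 143 bases wide and lay upstream of the whole gene. Cldn10 (NCBI gene 58187) encodes pore-forming claudins whose forms, made from alternative first exons, prefer cations or anions. It is the longest of the 8 genes at 86.7 kb, on chr14:118787871-118874525, plus strand. The regions at chr14:118764091-118764233 and chr14:118751352-118751494 were 23.7 and 36.4 kb upstream of the outer start and 12.7 kb apart. From the inner start, 67.1 kb further in, they were 90.8 and 104 kb away. Cldn10 was the nearest protein-coding gene to both, ahead of Abcc4 at 56.3 and 43.6 kb, and the farther region lay inside Gm46484, annotated as a long non-coding RNA gene.

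Cldn1 and Cldn16 share a locus on chromosome 16, with 91.3 kb between them and no protein-coding gene in that gap. Cldn1 (NCBI gene 12737, chr16:26356645-26371839, minus strand) encodes a main barrier claudin, without which mouse skin loses water. Cldn16 (NCBI gene 114141, chr16:26463135-26482765, plus strand) encodes a claudin best known for magnesium uptake in the kidney. They too are transcribed away from each other. A 143-base region at chr16:26441325-26441467 lay in the gap, upstream of both, 21.7 kb from Cldn16 and 69.6 kb from Cldn1. Cldn1 had 1 further region, of 451 bases at chr16:26281738-26282188, which lay 74.7 kb past its downstream end inside Gm41436, a long non-coding RNA gene. Cldn1 was the only protein-coding gene within 100 kb of it. So the closest region to Cldn1 belongs more nearly to Cldn16, and the region whose nearest protein-coding gene is Cldn1 is the farther one.

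Cldn17 was the member with the most distant region. Cldn17 (NCBI gene 239931, chr16:88505807-88506978, minus strand) encodes an anion-pore claudin known mostly from kidney. Its region, of 143 bases at chr16:88425803-88425945, was 79.9 kb past its downstream end, with no other protein-coding gene within 100 kb. Cldn8, a neighbouring claudin gene 53.8 kb from Cldn17 on the far side from that region, was 135 kb from it and so had none.

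**Figure D2:**
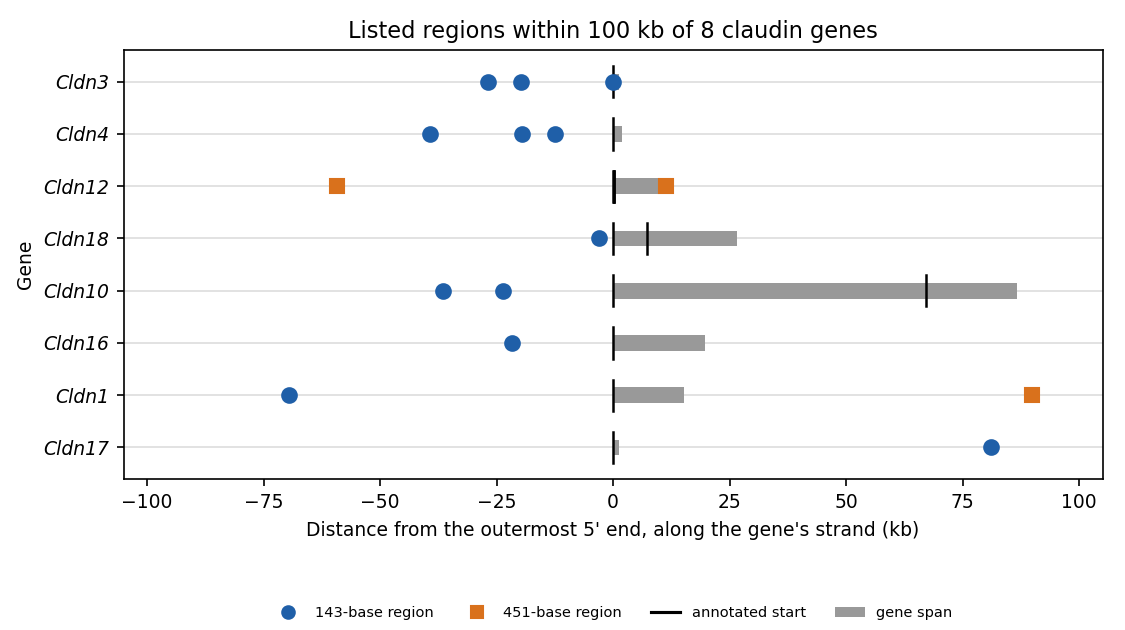
Position of each listed region relative to the outermost 5′ end of the 8 claudin genes, in kb along the gene's strand, with 143-base regions as circles and 451-base regions as squares, gene spans as grey bars and annotated starts as black lines. Most points lie left of the start, none lies within a span, and the squares are at Cldn12 and Cldn1; regions shared by neighbouring genes appear in both rows.

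Across the 8 genes, no region was centred inside the span, and upstream positions outnumbered downstream ones. Counting each gene with each of its regions gave 15 pairs, since 4 regions were shared by 2 members. Of the 15 pairs, 12 were upstream and 3 downstream, the downstream ones being at Cldn12, Cldn1 and Cldn17. Over all protein-coding genes with an annotated strand, 50.6% of the pairs outside the span were upstream. The shared regions lie between genes transcribed away from each other or at the Cldn3 start, and each counts as upstream of both genes. With each region given only to the member that is its nearest gene, 7 pairs were upstream and 3 downstream. Members joined by a shared region share evidence, which leaves 6 separate loci on 4 chromosomes.

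None of the 8 members had a region centred inside its span, and neither did any of the 37 claudin genes. Among all protein-coding genes 10.2% had one inside, and among those no longer than Cldn10 5.98% did. Claudin genes are short, with a median of 7.98 kb for the 37 and 12.6 kb for the 8, against 17.2 kb for all protein-coding genes. The part of gene length in this was not tested beyond that limit.

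The 11 regions were mostly of the narrow kind. A width of 143 bases was found for 8 (72.7%) and a width of 451 bases for 3 (27.3%), beside 49.4% and 50.6% in the list as a whole. This was not particular to the members. Of the 15 regions at other claudin genes and at no member, 11 were of 143 bases and 4 of 451 bases. The members were picked by region positions, so the widths are a description only. Widths were equal within the Cldn3 and Cldn4, Cldn10 and Cldn12 loci, and differed at Cldn1, whose regions were 159 kb apart. Of the 11, 2 had another listed region within 10 kb and 5 had one within 20 kb, against 12.3% and 22.7% of all regions. Those 5 were the regions of the Cldn3 and Cldn4 locus and of Cldn10. A median of 3.00 protein-coding genes lay within 100 kb of a region at the members, against 2.00 over the whole list. The 11 were picked for lying that near to a claudin gene, so none could lack such a gene, and the medians are not alike. The regions of the Cldn3 and Cldn4 locus had the most neighbours, 8 to 10 genes.

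The number of members with a region depends on the distance limit. All 8 had one within 100 kb, 6 within 50 kb and 4 within 20 kb. Of all protein-coding genes, 42.7%, 29.7% and 19.2% had a region within those limits. The members were picked for having regions, so these counts are a description only. No region lay close to the limit of 100 kb itself. The most distant regions inside it were those of Cldn17 at 79.9 kb and Cldn1 at 74.7 kb. The nearest region beyond it was at 123 kb for Cldn1, 128 kb for Cldn10, 134 kb for Cldn12 and 160 kb for Cldn16, and farther for the others. Among the other claudin genes, those just outside were Cldn19 at 106 kb, Cldn20 at 113 kb, Cldn34-ps at 118 kb and Cldn14 at 120 kb.

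Over the family, 20 of the 37 claudin genes (54.1%) had a region within 100 kb, against 42.7% of all protein-coding genes. Without the 8 members, chosen for having regions, the count was 12 of 29 (41.4%), near that background. The share of the 37 is raised by that choice and the share of the 29 is lowered by it, so neither is read as a result about the family. All 11 Cldn34 genes, which lie on chromosome X, had none. On autosomes, 19 of 25 claudin genes (76.0%) had a region, and 11 of 17 (64.7%) without the members, against 43.7% of autosomal protein-coding genes. The autosomal split was made after the positions were seen, and it leaves out chromosome X, where 1 of 12 claudin genes (8.33%) had a region. Leaving out chromosome X raises both autosomal claudin shares, while leaving out the members lowers the share of the 17. Some of these genes also share regions, so neither share is read as a result. No share for chromosome X genes as a whole is given here. The median number of regions within 100 kb was 2.00 for the members and 1.00 for the 37 genes, both raised by the choice of members. It was 0 for the 29 without the members and 0 for all protein-coding genes, with means of 0.759 and 0.727.

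What sets the 8 apart from the other claudin genes with a region is that each was the nearest protein-coding gene to at least 1. Among all protein-coding genes 16.9% were nearest to a region. Of the 12 other claudin symbols with a region in reach, only Cldnd1, which encodes a claudin-domain protein and not a classical claudin, was nearest to one, a 143-base region 2.99 kb past its downstream end. This follows from how the members were picked and is no finding about them.

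Apart from Cldn13, whose regions are those of Cldn4 and Cldn3, and Cldnd1, the other claudin genes with a region in reach had only regions that were nearer to a gene of another family. Cldn11, which encodes the claudin of myelin and of the Sertoli cell barrier, had 2 regions of 143 bases upstream, the farther at 15.4 kb, both slightly nearer to Skil, and another at 96.5 kb inside Slc7a14. Cldn6 and Cldn9, 0.137 kb apart on chromosome 17, shared 3 regions of 143 bases, the closest 10.6 kb from Cldn9 and 12.2 kb from Cldn6. Cldn7, a claudin of glandular epithelia with basolateral as well as junctional protein, had 3 regions of 143 bases at 43.1, 53.7 and 83.7 kb. The closest of those of Cldn7 lay inside Eif5a.

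A single region was in reach of each of Cldn5, Cldn25-ps, Cldn15, Cldn22, Cldn24 and Cldn2, while 17 of the 37 genes had none. Cldn5, the claudin of endothelial cells, had a 451-base region 27.7 kb downstream, inside Cdc45. Cldn25-ps had a 451-base region 19.6 kb away, inside Usp28. Cldn15, a pore-forming claudin of the intestine, had a 143-base region 57.0 kb away, inside Vgf. Cldn22 and Cldn24 shared a 451-base region at 80.9 and 78.6 kb, which was nearest to Cdkn2aip. Cldn2, a cation-pore claudin of leaky epithelia, was the only X-linked claudin gene with a region, of 451 bases, 60.3 kb away and inside Morc4.

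**Figure D3:**
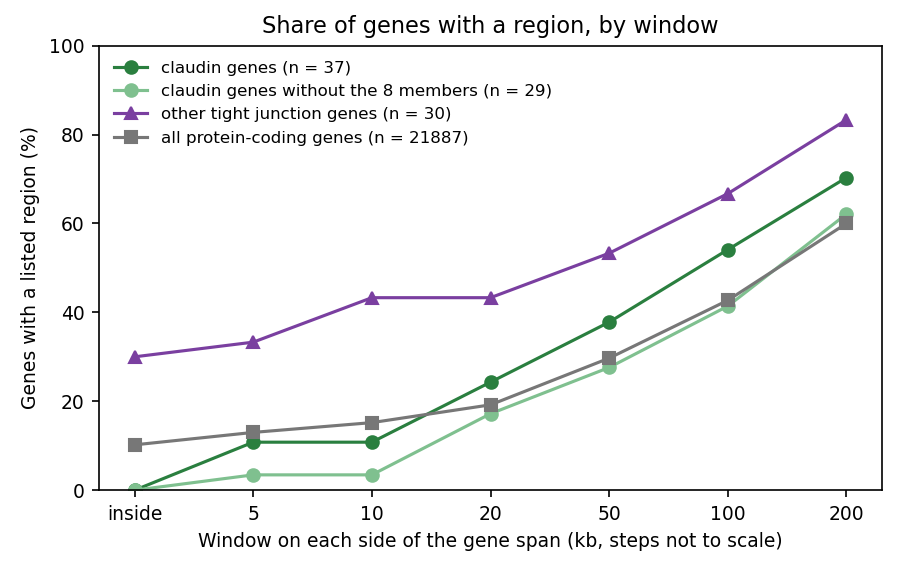
Percentage of genes with at least 1 listed region centred inside the span or within a window on each side of it, for the 37 claudin genes, the 29 left without the 8 members, 30 other tight junction genes and all 21887 protein-coding genes. The line of the 37 includes genes chosen for having regions; without them the share is below that of all protein-coding genes up to 100 kb (41.4% against 42.7%) and above it at 200 kb (62.1%).

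Several other tight junction genes had regions inside their spans. Of 30 genes for junction membrane proteins, scaffolds and polarity proteins, 20 (66.7%) had a region within 100 kb, against 42.7% of all protein-coding genes, and 9 (30.0%) had one inside, against 10.2%. These genes are long, with a median of 57.5 kb, and the part of length in these shares was not tested. The list was written with earlier results of these data known, so the shares are a description only. The 40 distinct regions in their reach comprised 24 of 143 bases and 16 of 451 bases.

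Among scaffold and cytoplasmic proteins, Afdn, which encodes the actin-binding scaffold afadin, had 5 regions of 143 bases in reach, with 1 inside the gene at chr17:13802953-13803095. Magi1, a scaffold gene of 608 kb, had a 143-base region inside at chr6:93935921-93936063. Magi2, a scaffold gene of 1485 kb, had 2 inside, of 143 bases at chr5:20522991-20523133 and of 451 bases at chr5:20701810-20702260. Cgnl1, which encodes the cingulin relative paracingulin, had a 143-base region inside at chr9:71663538-71663680. Amotl1, an angiomotin relative, had a 451-base region inside at chr9:14569273-14569723. The table used gives no exons, so whether these regions are exonic or intronic was not determined.

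Among membrane proteins, Jam3, an adhesion molecule of the immunoglobulin family, had a 451-base region inside at chr9:27110367-27110817. Marveld2, which encodes tricellulin, the protein that seals corners where several cells meet, had a 451-base region 0.535 kb past its downstream end at chr13:100595197-100595647. Ocln, the occludin gene, lay 42.7 kb from the same region. Among scaffold genes of the zonula occludens, the closest region was 69.7 kb from Tjp1 and 6.51 kb from Tjp3. Marveld2, Ocln, Tjp1, Tjp3 and Prkci were named after their positions were seen. The polarity kinase gene Prkci had a 143-base region inside at chr3:31038766-31038908. It also shared the pair of regions near Skil with Cldn11, at 81.8 and 82.2 kb from Prkci.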

How the data were processed

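ATAC-seq was run on 6 libraries, 3 inflamed and 3 naive. The authors deposited 1 merged list of regions with 3 columns and no value per library, so its unit is a genome coordinate; per the submitters' processing notes, BWA 0.7.17-r1188, SAMtools, HOMER 4.8 and edgeR were used with build mm10. Their order, thresholds and pooling, and the depth per library, are not given in the sources used here. Filtering before deposit decides what can appear, and regions just short of it leave no trace.

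Starts, counted from 0 in the list, are printed from 1. Each region was placed by its centre (Python 3.11.15) against spans of 21887 protein-coding genes on chromosomes 1 to 19, X and Y in the RefSeq table of GRCm38.p6. All 8 members and all 30 genes of the tight junction list matched. A region was given to every gene within 100 kb. The nearest gene is the shortest that encloses it or, otherwise, the closest within 100 kb. Strand, start sites and sequence came from RefSeq promoter windows. In a check on simulated data, a plain search found the same gene at 500 of 500 random positions. No test between groups could be fitted, and counts are set beside the share of all protein-coding genes.

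The members and lists were chosen with earlier results of these data known. Named are all members, other claudin genes with a region in reach or beside a member, genes nearest to a member's region, and the 6 tight junction genes with the closest regions, with ties broken by symbol. Claudin genes just beyond 100 kb and 5 further tight junction genes were named after their positions were seen. Values of 1 gene of the tight junction list are not reported here.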

Additional observations from a re-analysis of the deposited data

How the results depend on the processing

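Windows of 20, 50 and 200 kb, any overlap in place of the centre, the nearest gene only, each width alone and merging of regions within 1 kb were tried. Within 50 kb, 8 regions and 6 of the 8 members were left, where 29.7% of all protein-coding genes had a region. Within 20 kb, 5 regions and 4 of the 8 members were left. So were 9 claudin genes (24.3%), 13 tight junction genes (43.3%) and 4198 protein-coding genes (19.2%). Within 200 kb, 20 regions were in reach of members. With 451-base regions alone, 3 regions and 2 members remained in the count. So did 7 claudin genes (18.9%), 12 tight junction genes (40.0%) and 4309 protein-coding genes (19.7%). With 143-base regions alone, 11 tight junction genes (36.7%) remained, against 29.0% of all protein-coding genes. With the nearest gene only, 9 claudin (24.3%), 12 tight junction (40.0%) and 3708 protein-coding genes (16.9%) had a region. Of those 9 claudin genes, 8 were members. Without the members, which were picked by region positions, the claudin share was 41.4% against 42.7% of all protein-coding genes at 100 kb. It was 17.2% against 19.7% with 451-base regions alone and 24.1% against 29.0% with 143-base regions alone. With the nearest gene only it was 3.45% against 16.9%, the widest gap of the settings tried. Each member was the nearest gene to at least 1 region, so leaving the members out lowers that share. Within 200 kb the share without the members was above that of all protein-coding genes. The count of these 29 genes with a region was 12 at 100 kb, 8 within 50 kb and 18 within 200 kb. All other counts moved by less than 1.5 times in the remaining combinations. Among these was leaving out the claudin-domain and -ps symbols, a setting added after seeing the data (18 genes). These settings change how many regions or how much sequence is counted. No paired analysis was possible because individual libraries have no values in the deposited table, and for that reason none could be left out. The depth of the libraries is unknown.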
